A study of Homo sapiens with 6 samples.

Results

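The Notch receptors, ligands and targets described here are 10 named genes of a table of 38170 annotated features: the receptors NOTCH1, NOTCH2 and NOTCH3, the ligands JAG1, JAG2 and DLL1, and the targets HES1, HES4, HEY1 and NRARP. Each name matched 1 row. The genes were chosen by name with the comparison between the groups already in view, so their differences between groups are given as a description, with no test. The 6 libraries hold RNA of A549, an established human line from a lung adenocarcinoma. In the vector group (3 libraries) the cells were transfected with an empty vector, and in the LOC401312 group (3 libraries) they overexpressed LOC401312, a long non-coding RNA, from a piggyBac transposon. Titles set the groups, because replicates 2 and 3 of LOC401312 carry genotype labels that name LOC401313 and LOC401314. The labels name no irradiation, and they do not say whether a line was 1 clone or a pool. Nor do they say that the replicates are separate cultures, so any p-value here rests on a spread between libraries that could be technical only.

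Notch receptors are membrane proteins that bind ligands on neighbouring cells. Ligand binding lets an ADAM protease and then gamma-secretase cut the receptor, and the freed intracellular domain enters the nucleus, where it joins the DNA-binding protein RBPJ and a Mastermind coactivator to switch on targets such as the HES and HEY repressors. In lung epithelium, Notch signalling takes part in the choice between secretory and ciliated fates, and mutated or misexpressed receptors occur in lung cancers.

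Libraries held 60971105 to 73994619 counts. The STEAP1B entry, in which reads of LOC401312 fall, held 9 to 23 counts in the vector libraries and 90297 to 94628 in the LOC401312 libraries. The epithelial keratins KRT8 and KRT18 stood at 4619 to 5147 and at 3186 to 3403 CPM (counts scaled to a common library size by TMM), and 3 alveolar markers, NKX2-1, SFTPC and SFTPB, were under 1 CPM in every library. Some libraries held more transcripts of genes that mark other cell types, and the source of these transcripts was not tested. The 11 placental markers summed to 113 and 92.6 CPM in LOC401312 replicates 2 and 3 and to between 1.64 and 2.71 CPM in the other libraries. The 9 urothelial markers summed to 19.9 to 24.3 CPM in vector and 12.4 to 13.9 CPM in LOC401312. Of these, 3 were called lower (KRT13, PSCA and ADIRF). GRHL3, a large part of each sum, held 8.68 to 11.6 CPM in vector and 9.38 to 10.1 CPM in LOC401312. The leukocyte gene PTPRC reached 3.45 CPM in vector replicate 1 and at most 0.117 CPM elsewhere. Of 3 T cell genes 1 was in the table, at 0.162 CPM in vector replicate 1 and 0 elsewhere. The share of these in the differences below was not tested, unless a value without the library is given.

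RefSeq promoters (GRCh38.p14) were found for 8 of the 10 genes, and 4 are shown. HES1 and HES4 are shown as targets with matches to the RBPJ core TGGGAA, NRARP as a target without one, and NOTCH3 as the gene with the largest difference between the groups. Each run is the 250 bases before the RefSeq start site, 5′ to 3′ on the gene's strand, with matches to TGGGAA, or to the longer GTGGGAA that contains it, in capitals.
HES1, chr3:194135898-194136147, plus strand: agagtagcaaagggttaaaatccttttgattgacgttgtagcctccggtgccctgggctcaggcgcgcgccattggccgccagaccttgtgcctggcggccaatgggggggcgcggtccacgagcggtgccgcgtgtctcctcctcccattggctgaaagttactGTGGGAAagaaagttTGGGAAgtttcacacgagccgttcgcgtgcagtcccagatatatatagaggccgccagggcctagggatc
HES4, chr1:1000098-1000347, minus strand: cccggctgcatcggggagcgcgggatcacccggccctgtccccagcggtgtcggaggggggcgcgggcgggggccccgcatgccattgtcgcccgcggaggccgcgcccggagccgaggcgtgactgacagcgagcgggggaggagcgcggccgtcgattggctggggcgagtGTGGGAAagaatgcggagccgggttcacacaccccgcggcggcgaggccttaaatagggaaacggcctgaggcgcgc
NRARP, chr9:137302272-137302521, minus strand: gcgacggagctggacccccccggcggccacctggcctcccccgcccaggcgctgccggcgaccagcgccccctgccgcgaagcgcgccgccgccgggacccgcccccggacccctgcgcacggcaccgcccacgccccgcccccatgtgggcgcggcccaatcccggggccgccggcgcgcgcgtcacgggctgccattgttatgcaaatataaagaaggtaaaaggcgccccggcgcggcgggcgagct
NOTCH3, chr19:15200996-15201245, minus strand: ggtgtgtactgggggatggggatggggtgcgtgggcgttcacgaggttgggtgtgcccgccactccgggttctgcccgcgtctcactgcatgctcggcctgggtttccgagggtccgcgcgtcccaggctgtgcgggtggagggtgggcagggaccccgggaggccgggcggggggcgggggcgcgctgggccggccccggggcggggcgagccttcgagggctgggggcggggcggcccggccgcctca

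Both strands were searched. HES1 had 2 matches to TGGGAA, which begin 84 and 70 bases before the start, and the first is also a match to GTGGGAA. HES4 had 1 match to GTGGGAA, which begins 77 bases before its start. The core TGGGAA occurred in 20.8% of 35116 promoter windows of this length and GTGGGAA in 5.43%. None of the other 6 windows (NOTCH1, NOTCH2, NOTCH3, JAG1, JAG2 and NRARP) held TGGGAA, which says only that these letters are not there. The N-box CACNAG, a sequence that HES repressors bind, matched 3 times in the HES1 window, once in that of NOTCH3 and in none of the other 6, against 32.0% of all windows with a match. The start in the deposited table was the RefSeq start except for HES4, 75 bases away, and JAG2, 48 bases away.

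NOTCH3 stood at 0.528-fold its vector level in the LOC401312 libraries, whereas NOTCH2 was higher and NOTCH1 hardly differed. NOTCH3, a receptor best known from vascular smooth muscle, had 6307, 5343 and 5458 counts in vector replicates 1 to 3 and 3444, 3091 and 2994 counts in LOC401312 replicates 1 to 3. In CPM these were 84.9, 89.4 and 88.7 against 48.8, 45.3 and 44.9. The lowest vector library thus lay well above the highest LOC401312 library, and the spread within each group was small. The means were 87.7 ± 2.40 and 46.3 ± 2.18 CPM (SD, n = 3 each), a 0.528-fold level and a log2 change (LOC401312 minus vector, from edgeR's quasi-likelihood fit) of -0.92 (SE 0.05). In the deposited FPKM, a level per transcript length, NOTCH3 was 7.57, 7.45 and 7.38 in vector and 4.61, 4.18 and 4.13 in LOC401312. The difference was also there without LOC401312 replicates 2 and 3, at -0.84. NOTCH3 is also a gene of mural cells and fibroblasts, and 2 of the 6 fibroblast markers (COL1A1 and COL1A2) were called lower. The rest were not called: COL3A1 (log2 change -1.76), LUM (0.11), DCN (-0.04) and PDGFRB (1.04). The 6 markers summed to 39.4 to 69.1 CPM in vector and 23.1 to 26.2 CPM in LOC401312, and none was at 0. COL3A1 alone held 20.9 CPM in vector replicate 1, against 3.23 and 7.82 CPM in vector replicates 2 and 3. PDGFRB, a receptor of mural cells and fibroblasts, was under 1 CPM in every library, 0.217 to 0.458 CPM in vector and 0.610 to 0.824 CPM in LOC401312. The part of these markers in the NOTCH3 difference was not tested. Fewer cells with a transcript and less of it per cell cannot be told apart in these bulk samples.

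NOTCH2, a broadly expressed receptor, held 104, 99.6 and 100 CPM in vector and 116, 117 and 121 CPM in LOC401312. The groups did not overlap, but the step was much smaller than that of NOTCH3. The means were 101 ± 2.69 and 118 ± 2.75 CPM (SD, n = 3 each), a 1.16-fold level and a log2 change of 0.22 (SE 0.04). NOTCH2 has near-identical partial copies, so its own count is uncertain. These copies, NOTCH2NLA, NOTCH2NLB and NOTCH2NLC, had log2 changes of 0.32 (edgeR adjusted p = 0.160), 0.43 (adjusted p = 0.502) and 0.89 (adjusted p = 0.314), and none passed. NOTCH2NLA, the most abundant, ran from 6.93 to 7.45 CPM in vector and from 7.88 to 10.4 CPM in LOC401312.

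NOTCH1, the receptor most often mutated in T cell leukaemia, held 26.8, 24.9 and 25.7 CPM in vector and 24.0, 24.4 and 23.6 CPM in LOC401312. The highest LOC401312 library lay just under the lowest vector library. The log2 change was -0.10 (SE 0.06), close to that of chromosome 9 as a whole, where NOTCH1 lies, whose 494 genes of at least 4 CPM had a median of -0.086. Removing the chromosome medians left -0.02, and limma on the deposited FPKM gave 0.03, so no direction is given. NOTCH4, outside the 10 genes, held 0.195 to 0.519 CPM, and at -0.70 (SE 0.54, edgeR adjusted p = 0.506) its difference was not detectable at this depth.

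**Figure D1:**
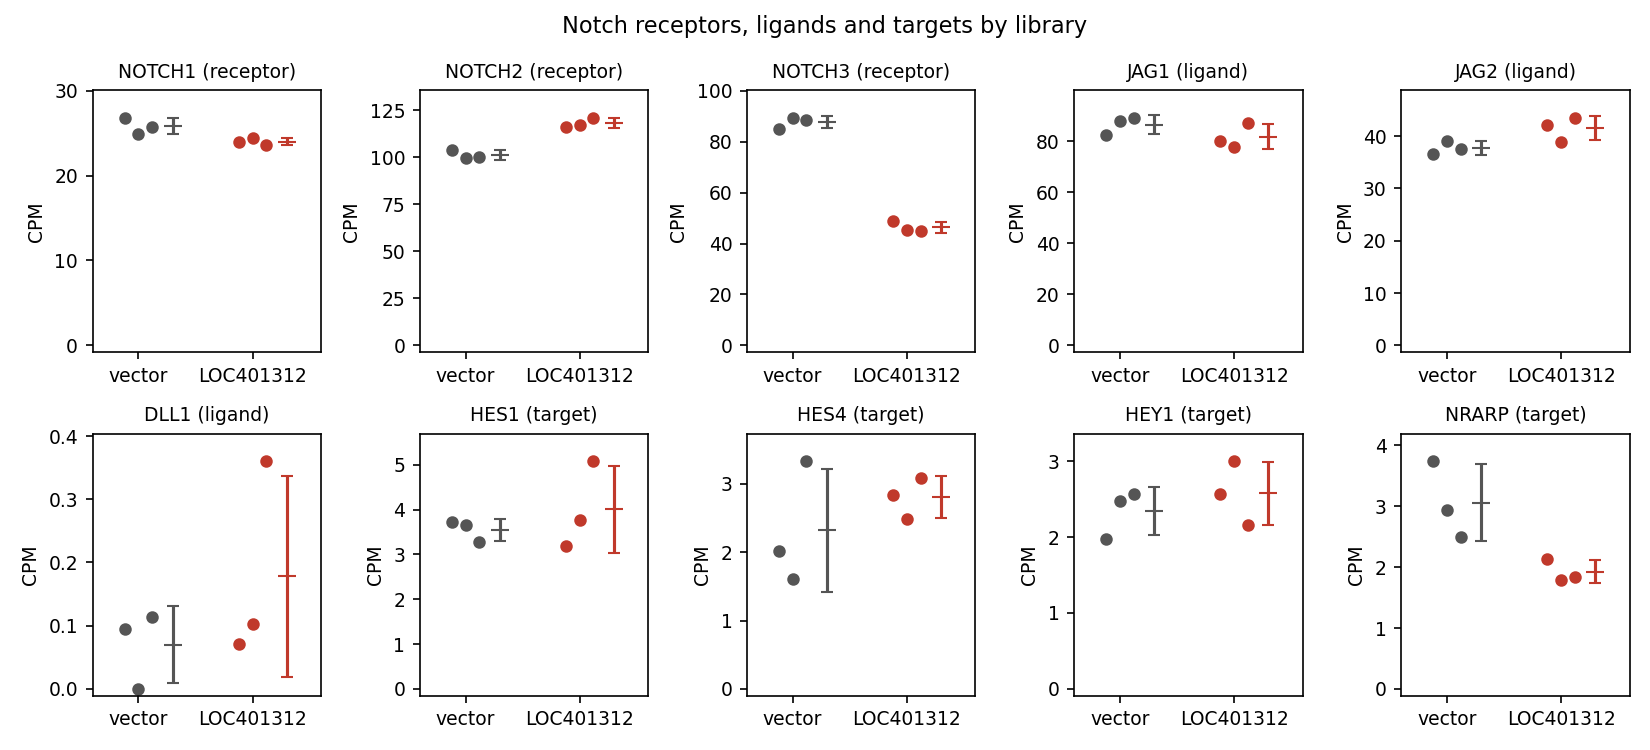
Level in CPM (linear axis) of each gene in the 3 vector (grey) and 3 LOC401312 (red) libraries; points are libraries in replicate order and bars are the mean and SD. NOTCH3 drops from 84.9 to 89.4 CPM in vector to 44.9 to 48.8 CPM in LOC401312, while the JAG1, HES1, HES4 and HEY1 groups overlap.

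Because NOTCH3 and NOTCH2 differed in opposite directions, the mixture of receptor transcripts was different. Among NOTCH1 to NOTCH3 by FPKM, NOTCH3 made up 53.8%, 56.4% and 56.0% in the vector libraries and 39.1%, 37.1% and 36.5% in the LOC401312 libraries. NOTCH2 made up 30.2% ± 0.870 in vector and 45.2% ± 1.35 in LOC401312 (SD, n = 3 each), so the most abundant receptor was NOTCH3 in every vector library and NOTCH2 in every LOC401312 library. The ratio of NOTCH3 to NOTCH2 FPKM was 1.83 ± 0.0981 and 0.832 ± 0.0548 (SD, n = 3 each). The summed FPKM of the 3 receptors was 13.2 to 14.1 in vector and 11.3 to 11.8 in LOC401312.

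A level per length depends on the length used, and the lengths behind the deposited FPKM were not the exon unions of GENCODE v29. The bases implied by counts, FPKM and library totals were 1.18 to 1.22 times that union for NOTCH1, NOTCH3, JAG1, JAG2, HES1 and HES4. They were 1.40 times for NOTCH2, 1.77 times for NRARP and 2.02 times for HEY1, so FPKM places these 3 genes lower against the others than the union does. In CPM per kb of that union, a scale added after the data were seen, NOTCH3 made up 52.3% ± 1.41 of the 3 receptors in vector and 34.6% ± 1.34 in LOC401312, and NOTCH2 33.8% ± 0.912 and 49.2% ± 1.33 (SD, n = 3 each). The exchange of first place was the same on both scales.

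The order of all 10 levels was read on both scales. In vector FPKM it was NOTCH3 (7.47), JAG1 (7.44), JAG2 (4.73), NOTCH2 (4.08), NOTCH1 (1.94), HES4 (1.65), HES1 (1.38), NRARP (0.933), HEY1 (0.337) and DLL1 (0.0133). Of neighbours in that order, NOTCH3 and JAG1 overlapped between libraries, as did NOTCH1 with HES4 and HES4 with HES1. In LOC401312 FPKM it was JAG1 (7.68), JAG2 (5.68), NOTCH2 (5.18), NOTCH3 (4.31), HES4 (2.18), NOTCH1 (1.97), HES1 (1.70), NRARP (0.637), HEY1 (0.407) and DLL1 (0.0400). In this order HES4 overlapped with NOTCH1, and NOTCH1 with HES1. NOTCH3 thus held rank 1 in vector and rank 4 in LOC401312, below NOTCH2 and both Jagged genes with no overlap. On the exon union scale NOTCH2 stood above JAG2 in both groups, overlapping it in vector, and NRARP stood beside HES1 in vector. Over all 6 libraries JAG1 lay at the 77.2 percentile of mean FPKM among the 19620 tested features, and NOTCH3 at 72.1. NOTCH1 lay at 50.6, HES4 at 50.2, HES1 at 46.7, NRARP at 37.0 and HEY1 at 26.5.

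**Figure D2:**
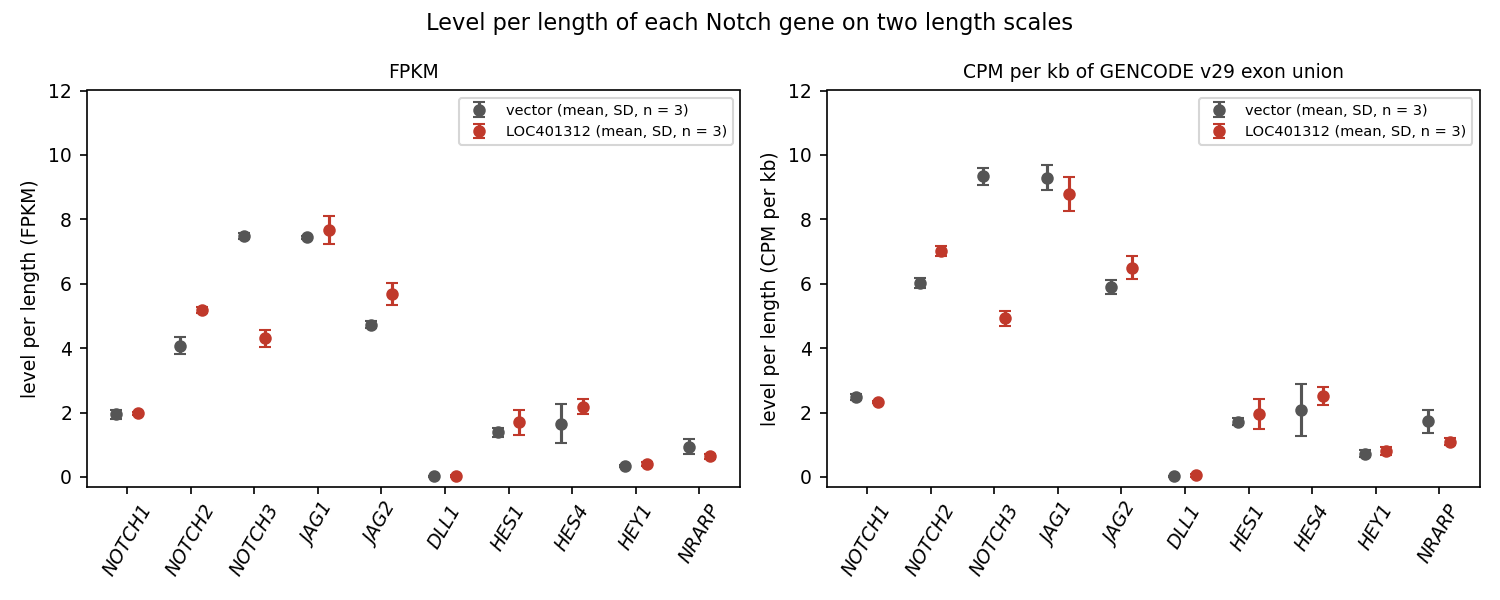
Mean level per transcript length with SD (n = 3 libraries per group) of each gene in vector (grey) and LOC401312 (red), as deposited FPKM (left) and as CPM per kb of the GENCODE v29 exon union (right), both on linear axes. On both scales NOTCH3 leads the receptors in vector (7.47 FPKM) and stands below NOTCH2 in LOC401312 (4.31 against 5.18 FPKM).

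Among the ligands, JAG1 and JAG2 were well expressed and DLL1 was barely detected. JAG1, a Serrate-type ligand and the most abundant one here, held 82.2, 87.8 and 89.1 CPM in vector and 80.1, 77.7 and 87.2 CPM in LOC401312. The groups overlapped, with a log2 change of -0.08 (SE 0.06) in the counts and 0.04 with limma on the deposited FPKM. JAG2, the other Jagged ligand, held 36.5, 39.1 and 37.6 CPM in vector and 42.2, 38.9 and 43.5 CPM in LOC401312. LOC401312 replicate 2 lay within the vector range, and the log2 change was 0.14 (SE 0.06). In FPKM the JAG2 groups did not overlap, at 4.59 to 4.80 against 5.28 to 5.89. Those FPKM values carry a general shift: over the 6137 features whose mean FPKM reached 5, the median log2 change was 0.11. JAG2 made up 38.8% ± 0.765 of the summed FPKM of the 3 ligands in vector and 42.4% ± 0.828 in LOC401312 (SD, n = 3 each).

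DLL1, a Delta-type ligand, had 7, 0 and 7 counts in vector and 5, 7 and 24 counts in LOC401312, too few to pass the filter on low counts. Most of the LOC401312 counts came from replicate 3, one of the libraries with placental transcripts, and their source was not tested. DLL3, a Delta-like protein that acts inside the cell, held 3.79 to 5.35 CPM with overlapping groups (log2 change -0.16, edgeR adjusted p = 0.640), and DLL4, the Delta ligand of blood vessels, held 0.269 to 0.669 CPM (0.09, adjusted p = 0.947). Of the 7 endothelial markers, 6 were under 1 CPM in every library, and the 7 summed to 1.52 to 2.94 CPM.

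The targets had low counts, and only NRARP had groups that did not overlap. HES1, a repressor that Notch switches on in many tissues, held 3.72, 3.65 and 3.27 CPM in vector and 3.18, 3.78 and 5.08 CPM in LOC401312. Replicate 3 of LOC401312 stood above all others, and replicate 1 below all others. The log2 change of 0.18 (SE 0.19) became -0.03 without LOC401312 replicate 3 and -0.16 without LOC401312 replicates 2 and 3, the libraries with placental transcripts.

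HES4, a HES family member present in humans and absent from mice, held 2.02, 1.61 and 3.33 CPM in vector and 2.84, 2.49 and 3.09 CPM in LOC401312. Its vector libraries spread more than the groups differed. The log2 change of 0.27 (SE 0.27) was 0.63 without vector replicate 3 and 0.07 without vector replicate 2. HEY1, a related repressor, had 147, 148 and 158 counts in vector and 181, 205 and 144 counts in LOC401312, or 2.34 ± 0.317 and 2.58 ± 0.424 CPM (SD, n = 3 each). Its groups overlapped too (log2 change 0.14, SE 0.21), and without LOC401312 replicate 2 or vector replicate 1 it was at 0.01 or 0.03.

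NRARP, a small ankyrin protein that Notch induces and that limits Notch in turn, held 3.74, 2.94 and 2.49 CPM in vector and 2.14, 1.79 and 1.84 CPM in LOC401312. All LOC401312 libraries lay below all vector libraries. The counts were low, 153 to 278 in vector and 122 to 151 in LOC401312, and the log2 change of -0.67 had a wide error (SE 0.21). Vector replicate 1, the highest, also held the PTPRC signal given above, and CD3E at 0.741 CPM, which was at 0 elsewhere. Its 5 haematopoietic markers summed to 15.7 CPM against 10.7 to 13.7 CPM in the other libraries. Most of each sum was CD14, at 11.5 CPM in vector replicate 1 and 10.7 to 13.5 CPM in the other libraries. Without vector replicate 1 the log2 change of NRARP was -0.50. The summed CPM of the 4 targets was 11.3 ± 0.521 in vector and 11.3 ± 0.755 in LOC401312 (SD, n = 3 each), so the sum did not differ between the groups by more than the spread of the libraries.

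Of the 9 genes with enough counts, 2 passed an adjusted p of 0.05 in the edgeR fit over all features, NOTCH2 as higher and NOTCH3 as lower, where 8.72% of the 19620 tested features passed, 4.13% as higher and 4.58% as lower. Groups did not overlap in CPM for 4 of the 9 (NOTCH1, NOTCH2, NOTCH3 and NRARP), against 27.9% of all tested features. As the genes were chosen with this comparison in view, nothing is read from these counts. The median log2 change of the 9 was 0.14 with 5 positive and 4 negative, and that of all tested features was 0.00.

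**Figure D3:**
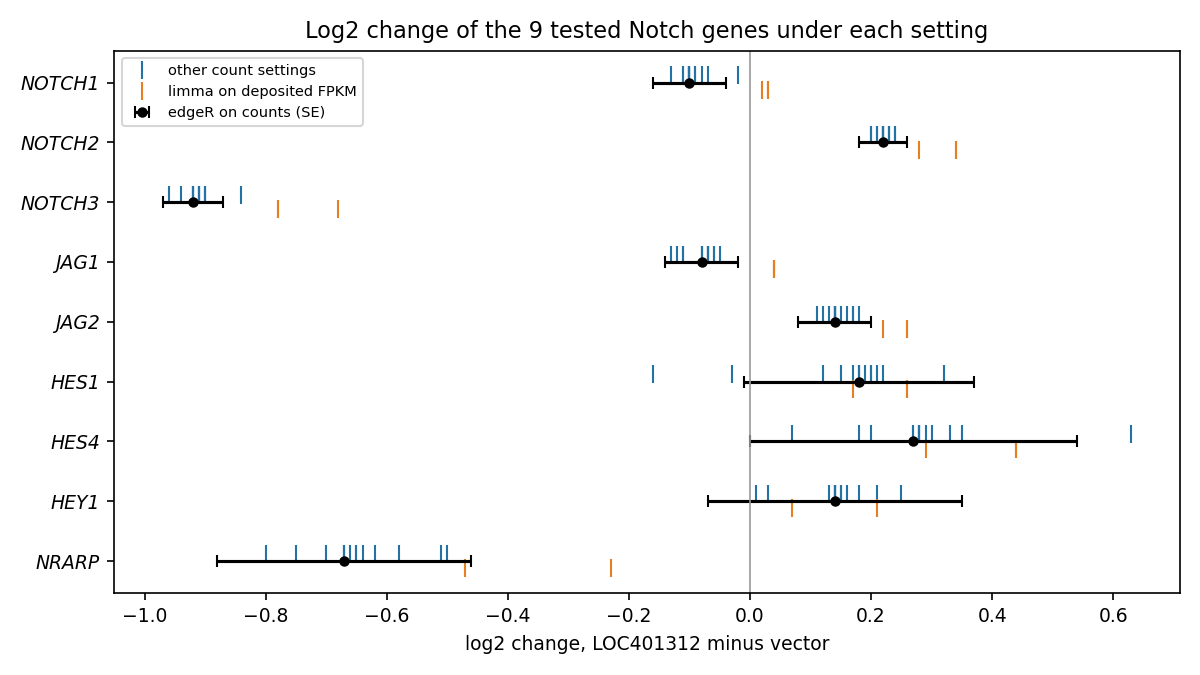
Log2 change (LOC401312 minus vector) of the 9 tested genes with its SE in the edgeR fit (black), and under the other settings on counts (blue) and the limma settings on deposited FPKM (orange). NOTCH3 stays between -0.96 and -0.68, NOTCH2 between 0.20 and 0.34, whereas HES1 falls on both sides of 0 (-0.16 to 0.32).

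In the deposited table (GRCh38), NOTCH1 lies on chromosome 9 from 136494433 to 136546048, NRARP on chromosome 9 from 137299631 to 137302271 and NOTCH2 on chromosome 1 from 119911553 to 120069662. HES4 lies on chromosome 1 from 998962 to 1000172, JAG1 on chromosome 20 from 10637684 to 10673999 and JAG2 on chromosome 14 from 105140982 to 105168824. DLL1 lies on chromosome 6 from 170282206 to 170306565, HEY1 on chromosome 8 from 79762371 to 79767857 and HES1 on chromosome 3 from 194136148 to 194138732. HES1 is on the plus strand and the other 9 genes are on the minus strand.

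The genes around NOTCH3 did not share its difference. NOTCH3 (ENSG00000074181) lies on chromosome 19 (GRCh38, 15159038 to 15200995, minus strand), whose median log2 change was -0.007. Of 12 tested features with a start within 500 kb, none was called, against 8.72% of all tested features. Their log2 changes ran from -0.32 to 0.50 with a median of 0.03. The nearest were ILVBL, at 27.3 to 31.7 CPM in vector and 28.9 to 32.1 CPM in LOC401312 (log2 change 0.09, edgeR adjusted p = 0.583) and SYDE1 (-0.01, adjusted p = 0.964). NRARP and NOTCH1 both lie at the end of chromosome 9. Within 500 kb of NRARP, 1 of 51 tested features was called, SAPCD2, named after its value was seen (-0.39, adjusted p = 0.00506), and their median was -0.07. Within 500 kb of NOTCH1 none of 39 was called, with a median of -0.09. With 8.72% called over all tested features, nothing is read from these counts of calls.

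**Figure D4:**
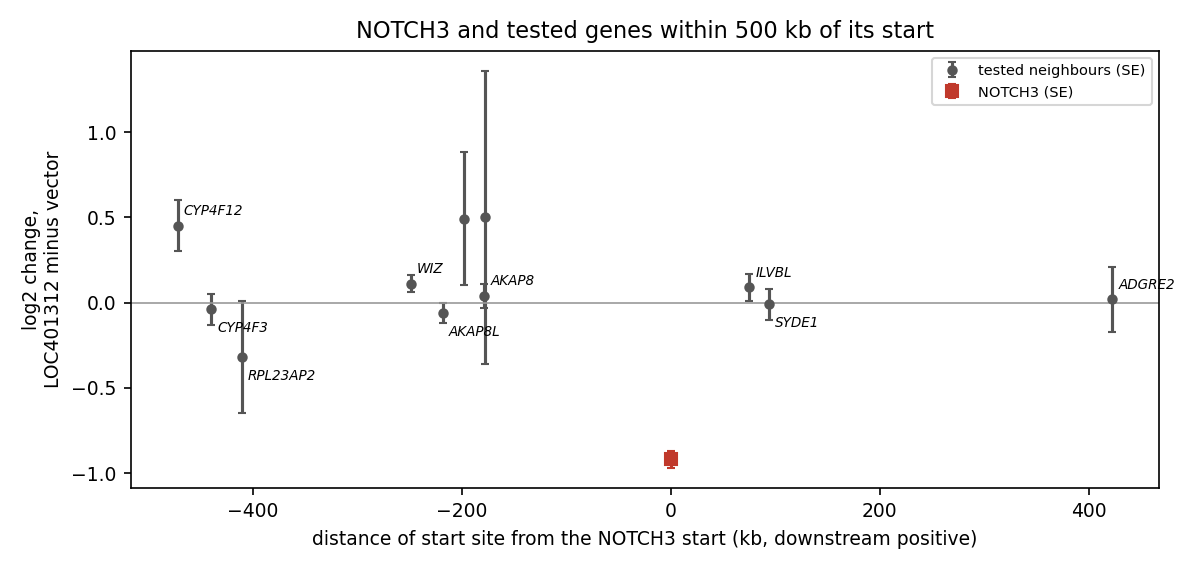
Log2 change with SE (LOC401312 minus vector) of NOTCH3 (red square) and of tested features within 500 kb (grey), by the distance of their start from that of NOTCH3 in kb, downstream positive. The neighbours shown scatter between -0.32 and 0.50 while NOTCH3 lies at -0.92.

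Reads of overlapping genes could touch few of the 10. In GENCODE v29, JAG1 shares 79 exon bases with an antisense gene that held at most 2 counts, and JAG2 shares 469 with a transcript on its own strand that held at most 1. DLL1 overlaps FAM120B on the other strand without a shared exon, and FAM120B held 1934 to 2526 counts, so with DLL1 at 24 counts or fewer a small spill could not be seen apart.

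The features most like NOTCH3 in pattern across the 6 libraries (Pearson correlation of log2(CPM + 0.5), given as a description with no p, over the 11665 features whose mean FPKM reached 1) were AKR1C2, an aldo-keto reductase (r = 0.9983), DGKD, a diacylglycerol kinase (0.9982), and RPE, a pentose phosphate enzyme (0.9979). In all, 403 features reached 0.95. The differences of the 3 were smaller than that of NOTCH3, with log2 changes of -0.42, -0.35 and -0.37. DGKD and RPE lie on chromosome 2, whose genes had a median of -0.233. The features most like JAG1 were SAP30, PMPCB and ALDH18A1 (0.9804 to 0.9764), and those most like HES4 were KIFAP3, ATG14 and RANBP3 (0.9916 to 0.9807). None of these 6 passed the test between the groups (edgeR adjusted p of 0.416 or more). As the JAG1 and HES4 groups overlapped, features chosen to be like them were unlikely to pass. The NOTCH3 pattern is mainly the step between the groups, so features chosen to be like NOTCH3 differ between the groups too. With 6 libraries such likeness can also come from shared library effects.

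The rest of the pathway was read from 9 lists of 103 genes, 101 of them in the table and 96 tested. The lists were fixed with earlier results of these data known, so no excess is read from the shares that follow. Of the 96, 10 rose, 5 fell and 81 did not pass, 15.6% against 8.72% of all tested features. By list the share ran from 0% to 38.5%, the highest among other genes known as Notch targets in some tissues. The median log2 change of the 96 was 0.03. Without LOC401312 replicates 2 and 3, 2 rose and 1 fell, with the lone LOC401312 library assumed to vary like the vector libraries. The lists for cutting the receptor and reading its signal held no call. With 8.72% of all tested features called, few calls would be expected in lists this short. Nothing is therefore read from their absence. Of 8 genes for ADAM proteases and gamma-secretase none passed, with ADAM10, a sheddase of Notch, at 0.07 (SE 0.04, edgeR adjusted p = 0.356) and ADAM17 at -0.15 (SE 0.05, adjusted p = 0.0885). ADAM17 lies on chromosome 2, whose genes had a median of -0.233, and was at 0.08 (adjusted p = 0.428) with chromosome medians removed. Of 11 genes of the RBPJ activator complex none passed either, with CCNC, cyclin C, at 0.16 (adjusted p = 0.0730; 0.0415 with scaling by total counts, and limma adjusted p = 0.0222 on log2(FPKM + 0.1)) and the Mastermind gene MAML3 at -0.17 (adjusted p = 0.225). RBPJ itself ran from 32.9 to 37.0 CPM in vector and from 33.3 to 34.2 CPM in LOC401312 (-0.03, adjusted p = 0.822).

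Among 12 tested receptors and ligands outside the 10 genes, 2 rose and none fell. DNER, a neuronal transmembrane protein described as a Notch ligand, rose by 0.93 (SE 0.09, edgeR adjusted p = 0.000163). It held 10.9, 9.55 and 10.5 CPM in vector and 19.9, 18.9 and 20.1 CPM in LOC401312, with no overlap. It lies on chromosome 2 and was at 1.16 with chromosome medians removed. CNTN1, a contactin also described as a Notch ligand, rose by 0.26 (SE 0.04, adjusted p = 0.00296) from between 329 and 354 CPM to between 408 and 418 CPM. It lies on chromosome 12, whose median was 0.117, and was at 0.15 (adjusted p = 0.0517) with chromosome medians removed. Of 10 genes of receptor maturation and glycosylation, POFUT1, which puts fucose on Notch, rose by 0.14 (SE 0.04, adjusted p = 0.0424), a call lost on leaving out any library except vector replicate 1 (adjusted p up to 0.164). Of 6 tested genes of ligand ubiquitination and endocytosis, EPN2, an epsin, fell by 0.43 (SE 0.05, adjusted p = 0.000994), from between 67.3 and 74.4 CPM to between 51.4 and 55.3 CPM. With limma on log2(FPKM + 0.1) it was at -0.30 (limma adjusted p = 0.0698).

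Among 16 inhibitors and turnover genes, 2 rose and 1 fell. DTX4, a Deltex ubiquitin ligase, rose by 0.47 (SE 0.08, edgeR adjusted p = 0.00493), from between 13.6 and 15.1 CPM to between 19.6 and 20.9 CPM. The ubiquitin ligases NEDD4 and NEDD4L went opposite ways, by 0.29 (SE 0.05, adjusted p = 0.00715) and -0.26 (SE 0.05, adjusted p = 0.00788). NEDD4L was at -0.12 (limma adjusted p = 0.595) with limma on log2(FPKM + 0.1), and at -0.25 (edgeR adjusted p = 0.0506) without LOC401312 replicate 2. Of 14 corepressors, KDM5A, a histone demethylase, rose by 0.23 (adjusted p = 0.0134), CIR1 fell by 0.39 (adjusted p = 0.0474) and TLE1, a Groucho corepressor, by 0.16 (adjusted p = 0.0429). They lie on chromosomes 12, 2 and 9, and with chromosome medians removed none was called (adjusted p = 0.198, 0.443 and 0.367). CIR1 also lost its call without vector replicate 1 or 3 or LOC401312 replicate 1 or 2 (adjusted p up to 0.173), TLE1 without any library but vector replicate 1 (up to 0.148), and KDM5A without vector replicate 2 or 3 or LOC401312 replicate 2 or 3 (up to 0.0686).

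Of 6 tested HES and HEY relatives none passed, against 8.72% of all tested features, and nothing is read from that. The clock-linked repressors BHLHE40 and BHLHE41 were at -0.12 (edgeR adjusted p = 0.128) and 0.65 (SE 0.24, adjusted p = 0.133). HEY2 had 0 counts in every library, which allows up to 0.0405 to 0.0492 CPM by library (3 counts, counting error only). For this bound the counts were scaled by library totals without TMM. Of 13 other genes known as Notch targets in some tissues, 4 rose and 1 fell, and other pathways control them too. TNC, a matrix glycoprotein, rose by 0.81 (SE 0.06, adjusted p = 4.96e-05), from between 33.0 and 38.2 CPM to between 61.7 and 62.5 CPM. NFKB2, an NF-kB subunit, rose by 0.30 (SE 0.04, adjusted p = 0.00213), and ID2, an inhibitor of helix-loop-helix factors, fell by 0.79 (SE 0.10, adjusted p = 0.00112), from between 12.4 and 13.8 CPM to between 6.83 and 8.01 CPM. ID2 lies on chromosome 2 and kept its call with chromosome medians removed (adjusted p = 0.00915). The other calls, named after their values were seen, were SNAI2, an epithelial-mesenchymal transition factor (1.13, adjusted p = 0.0172), and IL7R, a cytokine receptor (1.34, adjusted p = 0.0197), both under 5 CPM in every library. MYC (-0.11, adjusted p = 0.215) and CCND1 (0.03, adjusted p = 0.779) did not pass.

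**Figure D5:**
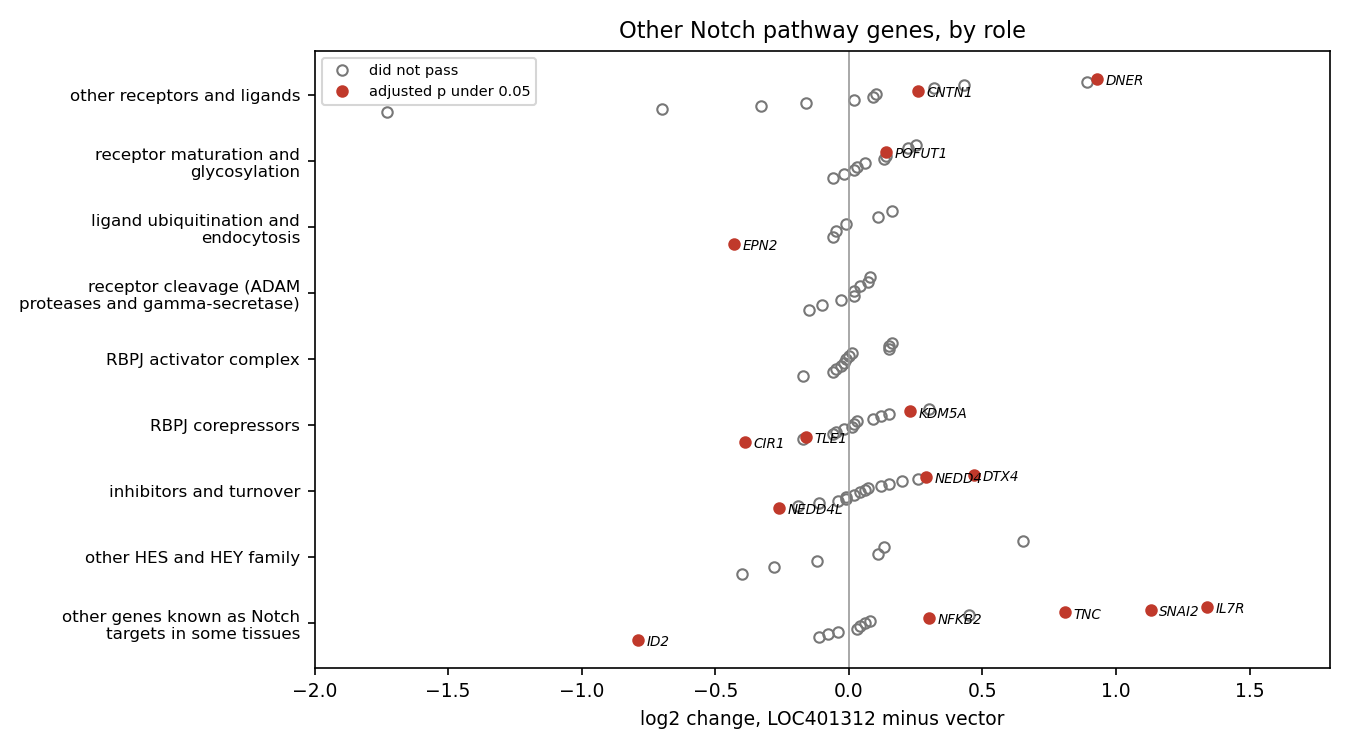
Log2 change (LOC401312 minus vector) of the 96 tested Notch pathway genes outside the 10 described, by role; filled red points passed an adjusted p of 0.05 in the edgeR fit and open points did not. DNER (0.93) and TNC (0.81) rose and ID2 (-0.79) fell. No gene of receptor cleavage, of the RBPJ activator complex or of the other HES and HEY family passed. Over all tested features 8.72% passed, so nothing is read from no call in such short lists.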

How the data were processed

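Total RNA of 6 A549 libraries was sequenced, and the authors deposited 1 table with raw counts and FPKM per library. The count columns, 1 per library by their headers, hold whole numbers and were taken as raw counts. The deposited FPKM are levels per transcript length and library size, with definitions not stated. The submitters' processing notes name cutadapt 1.9, FastQC and the build GRCh38 (hg38). Not given in the sources used here: the aligner, counter, annotation release and strand setting.

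Counts were tested with edgeR 4.0.16 (R 4.3.3): TMM, filterByExpr (19620 of 38170 features kept), quasi-likelihood test with group as the only term and Benjamini-Hochberg adjustment over all tested features, threshold 0.05. SE is the size of the log2 change over the root of its F statistic. The biological coefficient of variation was 17.0%. The fit was tested on simulated data. Alternatives were DESeq2 1.42.0, other scalings and filters, limma 3.58.1 on log2(FPKM + 0.1) and log2(FPKM + 1), the replicate number as a block, chromosome medians removed, and libraries left out. Each library was taken as 1 replicate. Replicate pairs differed beyond sampling noise, with a chi-square of 13.81 to 23.12 for each degree of freedom. Such a spread can be technical, so it does not show that the libraries are separate cultures.

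The genes and lists were chosen with earlier results of these data known. Named genes were the 10 described, up to 3 called per list by smallest p (2 where none passed), and the 3 features most alike. Gene models were from GENCODE v29, whose spans equal those of the table for 23005 of 37001 shared genes, and promoters from RefSeq (GRCh38.p14). Of the list symbols, HES3, HELT, PTCRA and CD1A matched no row. The result of 1 neighbouring gene is not reported here.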

Additional observations from a re-analysis of the deposited data

How the results depend on the processing

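Of 9 tested genes, NOTCH2, NOTCH3, JAG2, HES4, HEY1 and NRARP kept their sign under all 17 alternatives that gave them a value, whereas NOTCH1 and JAG1 were positive with limma on FPKM and HES1 was negative without LOC401312 replicate 3 or without LOC401312 replicates 2 and 3. ADAM17 was at 0.08 with chromosome medians removed, and BHLHE40 at 0.00 with all 3 limma settings. The counts were 811 higher and 899 lower over all features, and 10 and 5 among the pathway genes outside the 10 described. Leaving out 1 library gave 393 to 963 higher and 439 to 1042 lower, and 6 to 11 and 2 to 4 in the pathway. Without LOC401312 replicates 2 and 3, 84 and 91 were called, and 2 and 1. At a threshold of 0.01 they were 333 and 405, and 6 and 3. With limma on log2(FPKM + 0.1), 843 were higher and 180 lower (82.4% higher, against 47.4% by edgeR), with a pathway count of 1 lower; with log2(FPKM + 1), 159 lower and 1; and with a mean FPKM of at least 1, 2108 and 364 (85.3% higher), and 19 and 2. With no filter 577 were lower, and 3 in the pathway. Scaling by total counts gave 3 lower in the pathway. With chromosome medians removed 514 were lower, and 3 in the pathway. Same-numbered libraries did not deviate together (r = -0.19, -0.02 and -0.08 across 11799 genes). With so few libraries per group this cannot exclude a pairing, and the main fit used none. With the replicate number as a block 509 were higher and 579 lower. The cause was not tested where none is named. DLL1 was not tested, for lack of counts, and low counts limit HES1, HES4, HEY1 and NRARP.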
